A study of Homo sapiens with 80 samples.

Results

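The lenalidomide response of parental SU-DHL-1 cells was read from 6 libraries of 80 in the series: 3 from cells kept for 18 h in 2.5 µM lenalidomide and 3 from cells kept for the same time in DMSO, the solvent. They are the columns for parental cells in the deposited table of 3′ digital gene expression (DGE), an RNA sequencing method that counts reads near the 3′ end of each transcript, so that a gene's count does not grow with its length. SU-DHL-1 is an established line of anaplastic large cell lymphoma (ALCL), a cancer of T cells, here of the ALK-positive form that a fusion of the ALK kinase drives; per the labels it comes from a lymph node and was grown in RPMI1640 medium with serum. The labels number the libraries of each group from 1 to 3 and do not say whether they are separate cultures, so each p-value measures the spread between these libraries, which may be technical.

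Other libraries of the series entered only where the same genes could be followed in them. Regrown SU-DHL-1 cells are 3 pools, made separately, selected for resistance in increasing lenalidomide and left drug-free afterwards for at least 2 months; 6 DGE libraries hold these pools after the same lenalidomide or DMSO exposure. In the ZFP91 knockout, parental cells carrying Cas9 received doxycycline, 1 µg/ml for 96 h, to switch on a guide RNA against ZFP91, and were compared by RNA-seq with uninduced cells, 3 libraries of each. Doxycycline was given to the knockout libraries only, so its own effect and that of the knockout cannot be told apart. PRO-seq, a run-on method that maps RNA while polymerase is still making it, was done in 3 parental and 3 regrown libraries whose labels name no drug.

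Lenalidomide binds cereblon, the substrate receptor of a CRL4 ubiquitin ligase, and makes it take up zinc-finger proteins that it would otherwise ignore, among them IKZF1, IKZF3 and ZFP91. The ligase marks these neosubstrates for the proteasome, so the first effect of the drug is on proteins, and changes in transcripts follow from it. In ALK-positive lymphoma the ALK fusion keeps STAT3 active, and IL10, granzyme B (GZMB), the interleukin 2 receptor chain IL2RA and CD30 (TNFRSF8) are typical products of these cells.

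Total counts were 348190, 347043 and 334908 in the DMSO libraries and 335651 and 395827 in lenalidomide libraries 1 and 2, but only 41571 in lenalidomide library 3. In that library 6874 genes had a count, against 12205 to 12752 in the other 5, and 1 count stood for 24.1 CPM, a gene's count scaled by the library's total, against 2.53 to 2.99. No 2 libraries of a group agreed within sampling noise. Of 15 markers of ALCL and T cells, 11 were in the table, with 3496 counts of IL2RA, 413 of TNFRSF8 and 376 of ALK over the DMSO libraries; CD2, CD3E, CD4 and CD7 were not analysed here. Of the myeloid list, 7 of 20 markers were in the table: CD163 had 140 counts over the DMSO libraries, CSF1R 21, S100A9 3 and MARCO 1, while S100A8, CD33 and AIF1 had 0 counts in all 6 libraries. Of the hepatocyte list, 8 of 16 were in the table, with 1187 counts of SERPINA1 and 146 of FGB over the DMSO libraries and 4 or fewer of each of the others. The 4 epithelial and stromal markers had 3 or fewer counts in either group, and the only B cell marker in the table, IGJ, had 0 and 2.

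Few genes were called as changed by lenalidomide, and most of them rose. Of 5796 genes with enough counts to test, 39 were higher with lenalidomide (0.673% of those tested) and 10 were lower (0.173%) at an adjusted p under 0.05, by edgeR's quasi-likelihood test with the Benjamini-Hochberg adjustment across the tested genes, which is the test behind every adjusted p given here. By the same test 503 genes had an unadjusted p under 0.05, beside 289.8 expected if no gene changed. The genes called therefore need not be all that changed. The median change over all genes tested was 0.00 on the log2 scale, and 49.6% lay above 0. In 46 of the 49 genes the lenalidomide and DMSO libraries did not overlap in CPM; over all genes tested the groups did not overlap in 14.4%. The rises ran from 0.40 to 8.74 on the log2 scale and the falls from −0.53 to −3.10.

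The count of genes depended on single libraries. Leaving out the shallow lenalidomide library 3 raised it to 105 genes, which included all 49. It dropped to 25 without DMSO library 2, 29 without DMSO library 1 and 30 without lenalidomide library 1. Under every alternative that tested them, 17 of the 49 genes stayed past the threshold: LBP, SPP1, SLC2A5, FGG, for which DESeq2 gave no adjusted p, TGM2, FCRLB, AKAP12, STON1, SERPINB4, PLAUR, TM4SF1, IFITM3, FBXO32, ANXA1 and SERPINB1 among the rises, and IL10 and GTPBP8 among the falls. The calls of CHI3L1, QSOX1, NLRP3, SYNPO, MT2A, TIPARP, GTF2H5, SERPINB3, RAB13, GADD45A, PTPN12, VGF, C4ORF3, S100A10, STOM, FCER1G, CTSB, EPAS1, MALAT1, MT-RNR2, TIMP1, GZMB, CDK6, SKA1, TOMM40, TMEM260, SAPCD2 and CMTM7 were lost without 1 or more single libraries, but without lenalidomide library 3 all 49 stayed.

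**Figure D1:**
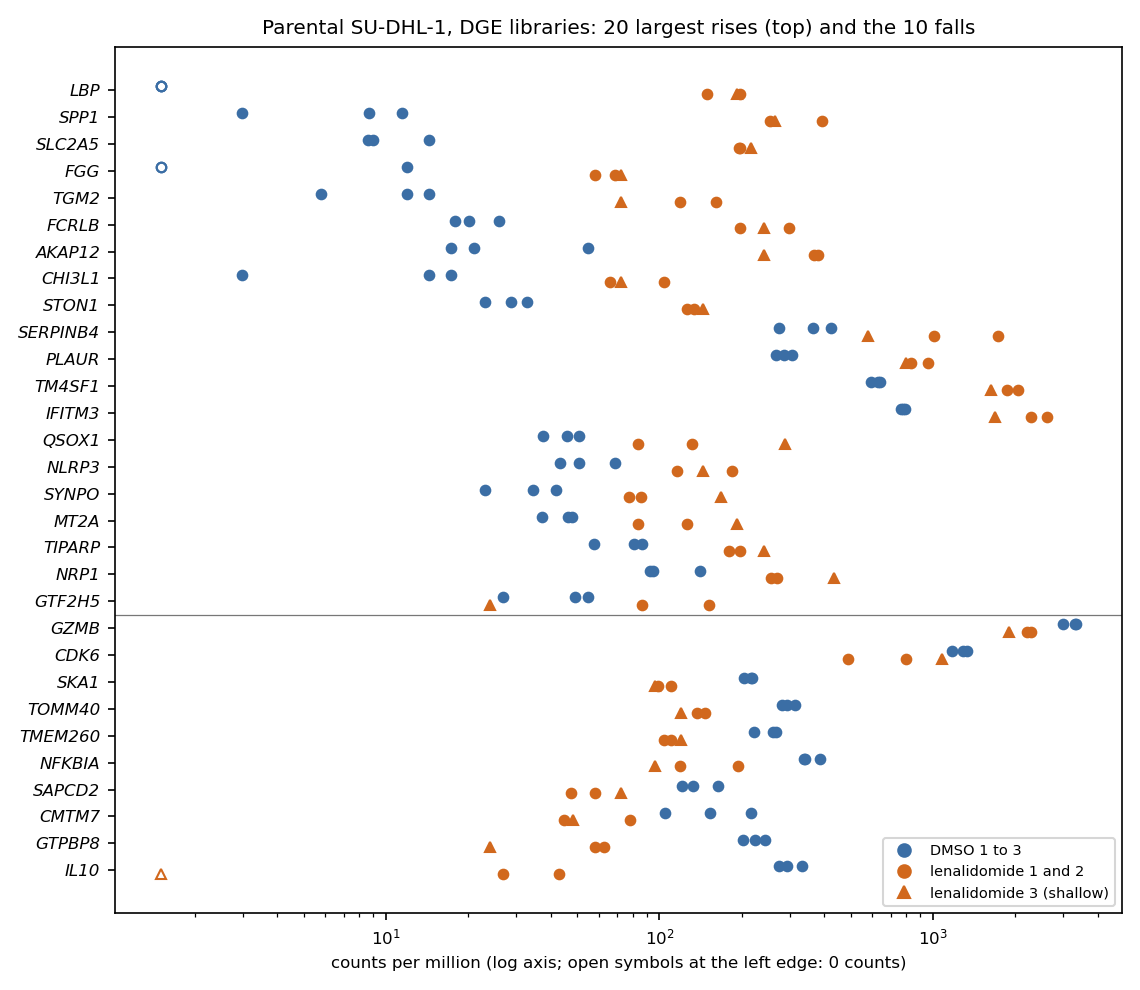
Level of 30 genes in each of the 6 parental DGE libraries, in CPM on a log axis, for the 20 largest rises above the line and the 10 falls below it. Blue points are DMSO libraries, orange points lenalidomide libraries 1 and 2, and orange triangles the shallow lenalidomide library 3; open symbols mark 0 counts. All genes shown except GTF2H5 have groups that do not overlap.

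The largest rises included genes of secreted proteins. SPP1 encodes osteopontin, a secreted phosphoprotein of bone matrix and inflamed tissue that binds integrins and CD44. Its level was 11.5, 8.64 and 2.99 CPM in DMSO libraries 1 to 3 and 253, 392 and 265 CPM with lenalidomide. Every lenalidomide library, the shallow one included, was far above every DMSO library. The change was 5.33 ± 0.39 (SE) on the log2 scale, a fitted 40.3-fold rise (adjusted p = 2.04e-11).

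LBP, the lipopolysaccharide-binding protein that the liver secretes in the acute phase, had 0 counts in all 3 DMSO libraries and 197, 149 and 192 CPM with lenalidomide. Set against the 3 counts that a count of 0 allows over the DMSO group, lenalidomide libraries were at least 59.1-fold higher (adjusted p = 2.49e-10). FGG, the gamma chain of fibrinogen, was at 0, 0 and 11.9 CPM with DMSO and 68.5, 58.1 and 72.2 CPM with lenalidomide, a change of 3.95 ± 0.70 (adjusted p = 0.000747). Without DMSO library 3, the only DMSO library with a count of FGG, the fitted change was 7.26. CHI3L1, a secreted chitinase-like glycoprotein, rose by 2.85 ± 0.48, from 14.4, 17.3 and 2.99 CPM to 104, 65.7 and 72.2 CPM (adjusted p = 0.000441). Its call was lost without lenalidomide library 1, and CHI3L1 had enough counts to test only through its lenalidomide libraries. PLAUR, the urokinase receptor that focuses plasminogen activation at the cell surface, rose from 267, 285 and 305 CPM to 828, 963 and 794 CPM (1.66 ± 0.19, adjusted p = 2.12e-07).

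A list of 31 acute phase and coagulation proteins had 6 members tested. LBP, PLAUR and FGG rose, none fell, all 6 lay above 0 and the median was 1.138 on the log2 scale, beside 0.00 for all genes tested. LBP and FGG had enough counts to test only through their lenalidomide libraries, so a rise was built into their place among the 6. The number above 0 and the median therefore do not describe the whole list. FGB, the fibrinogen beta chain, had a change of 0.61 ± 0.25 (adjusted p = 0.431), and SERPINA1, the secreted protease inhibitor that held 55.4% of the list's summed CPM, one of 0.05 ± 0.15. FGG, FGB and SERPINA1 are also on the hepatocyte list, whose summed level was 1282 to 1344 CPM with DMSO and 1374 to 1522 CPM with lenalidomide, 84.6% of it SERPINA1. FGA, the fibrinogen alpha chain, had 2 counts over the DMSO libraries and 18 over the lenalidomide libraries, ALB had 2 and 2, APOA1 1 and 0, TF 1 and 1, and HP 0 in both. The part of such cells in the result was not tested.

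Several genes of the cell adhesion and matrix list rose. Of 46 on the list 17 were tested: 6 rose, 0 fell, 12 lay above 0 and the median was 0.21. Besides SPP1 they were AKAP12, TGM2, TM4SF1, ANXA1 and TIMP1. Of these, SPP1, TGM2 and AKAP12 had enough counts to test only through their lenalidomide libraries. AKAP12, an anchoring protein that holds protein kinases A and C at the cell cortex, rose from 54.6, 17.3 and 20.9 CPM to 378, 366 and 241 CPM (3.55 ± 0.31, adjusted p = 7.43e-10), or by 4.22 without DMSO library 1. TGM2, the tissue transglutaminase that cross-links matrix proteins, rose from 14.4, 5.76 and 11.9 CPM to 161, 119 and 72.2 CPM (3.63 ± 0.42, adjusted p = 2.87e-07). TM4SF1, a membrane protein of the L6 family, rose from a much higher base, from 592, 631 and 639 CPM to 1859, 2041 and 1636 CPM (1.64 ± 0.16, adjusted p = 8.4e-09).

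The remaining members of that group changed less. ANXA1, annexin A1, a phospholipid-binding mediator of inflammation, rose by 0.97 ± 0.15, from between 1173 and 1308 CPM to between 1900.4 and 2665 CPM. TIMP1, an inhibitor of matrix metalloproteinases and the most abundant gene of the list with 63.0% of its summed CPM, had the smallest rise of all, 0.40 ± 0.10 (adjusted p = 0.0368). Its DMSO libraries held 9492, 8636 and 9286 CPM and its lenalidomide libraries 11491, 12458 and 11378 CPM, so even this change did not overlap. As a whole the list took 1.33% to 1.41% of all counts in the DMSO libraries and 1.82% to 2.09% with lenalidomide. NRP1, a co-receptor for semaphorins and VEGF, rose from 94.8, 141 and 92.6 CPM to 268, 255 and 433 CPM (1.41 ± 0.25). STON1, an endocytic adaptor, went from 28.7, 23.1 and 32.8 CPM to 134, 126 and 144 CPM (2.26 ± 0.33), and SYNPO, an actin-associated protein, from 34.5, 23.1 and 41.8 CPM to 77.5, 85.9 and 168 CPM (1.49 ± 0.37, adjusted p = 0.0419).

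SLC2A5 encodes GLUT5, the fructose transporter of the hexose transporter family. It went from 8.62, 14.4 and 8.96 CPM with DMSO to 197, 195 and 216 CPM with lenalidomide (4.21 ± 0.36, a fitted 18.6-fold rise, adjusted p = 7.43e-10). It was the only one of 23 tested hexose transporters and glycolytic genes past the threshold. SLC2A5 had enough counts to test only through its lenalidomide libraries, so a rise was built into its place among the 23. LDHA, lactate dehydrogenase, was at −0.29 ± 0.12 and the glucose transporter SLC2A3 at 0.45 ± 0.22.

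In the list of Fc receptor-like and signalling phosphatase genes 2 of 7 tested rose, 0 fell, 4 lay above 0 and the median was 0.09. FCRLB, a Fc receptor-like protein of the cytoplasm, rose from 25.8, 20.2 and 17.9 CPM to 197, 298 and 241 CPM (3.57 ± 0.32, adjusted p = 1.93e-09). It had enough counts to test only through its lenalidomide libraries. FCER1G, the signalling gamma chain of Fc receptors, rose by 0.96 ± 0.19. NLRP3, the sensor of an inflammasome, rose from 68.9, 43.2 and 50.8 CPM to 185, 116 and 144 CPM (1.5 ± 0.30, adjusted p = 0.00404). CD163, a scavenger receptor usually taken as a macrophage marker, was already present with DMSO, at 126, 158 and 122 CPM, and rose to 381, 245 and 577 CPM (1.39 ± 0.24). It made up 93.0% of the summed level of the myeloid list, which was 140 to 179 CPM with DMSO and 275 to 577 CPM with lenalidomide; CSF1R, the other member with more than a few counts, had 21 and 12. The part of myeloid cells in the result was not tested.

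IFITM3 and IFITM2, interferon-induced membrane proteins that block virus entry, rose by 1.58 ± 0.16 and 0.95 ± 0.16. IFITM3 stood at 789.8, 764 and 776 CPM with DMSO and 2291, 2609.7 and 1684 CPM with lenalidomide. The 2 genes are near copies of each other, so how their reads were split is uncertain. They were the only 2 of 23 tested interferon-stimulated genes past the threshold, while 15 of the 23 lay above 0 (median 0.21). The next of the list by p were SAMD9L (0.93 ± 0.26, adjusted p = 0.0954) and SAMD9 (0.75 ± 0.21, adjusted p = 0.1). The list's summed share of counts was 0.405% to 0.456% with DMSO and 0.674% to 0.794% with lenalidomide. IFITM2 and IFITM3 alone held 31.2% and 25.7% of the list's summed CPM, so this share mostly follows these 2 genes.

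Of the serpins of clade B, a family of mostly intracellular protease inhibitors, SERPINB4 rose by 1.82 ± 0.24, SERPINB3 by 1.38 ± 0.34 and SERPINB1 by 0.92 ± 0.13, while SERPINB6, the other member tested, was at 0.17 ± 0.35 (adjusted p = 0.962). SERPINB4 went from 365, 424 and 275 CPM to 1013, 1731 and 577 CPM. SERPINB3 and SERPINB4 are near copies, and reads between them are uncertain. SERPINB1, an inhibitor of neutrophil proteases, held 1729, 1787 and 1657 CPM with DMSO and 3292, 3347 and 2814 CPM with lenalidomide.

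MT2A, a metal-binding metallothionein, rose from 37.3, 46.1 and 47.8 CPM to 83.4, 126 and 192 CPM (1.43 ± 0.33). TIPARP, a mono-ADP-ribosyltransferase induced by the aryl hydrocarbon receptor, rose from 57.4, 80.7 and 86.6 CPM to 197, 179 and 241 CPM (1.42 ± 0.26). QSOX1, a secreted sulfhydryl oxidase, rose from 46.0, 37.5 and 50.8 CPM to 131, 83.4 and 289 CPM (1.51 ± 0.34, adjusted p = 0.019). GADD45A, a growth arrest gene, was the only one of 18 tested CDK inhibitors and p53 targets past the threshold, at 1.27 ± 0.28. FBXO32, a substrate receptor of an SCF ubiquitin ligase, also had 1.27, with an SE of 0.21, and GTF2H5, a subunit of TFIIH, had 1.41 ± 0.36. GTF2H5 was at 54.6, 49.0 and 26.9 CPM with DMSO and 86.4, 152 and 24.1 CPM with lenalidomide, where the last value is 1 count in the shallow library, so its groups overlapped; without lenalidomide library 2 its change was 0.82 and not called.

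The other rises were RAB13 (1.28), PTPN12 (1.15), VGF (1.03), C4ORF3 (1.02), S100A10 (0.99), STOM (0.98), CTSB (0.79), EPAS1 (0.76), MALAT1 (0.68) and MT-RNR2 (0.47) on the log2 scale. C4ORF3 and MT-RNR2 had groups that overlapped. MT-RNR2 is the mitochondrial 16S ribosomal RNA, which has nuclear near copies.

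IL10 had the largest fall. This cytokine, a product of STAT3 in these lymphomas, stood at 293, 331 and 275 CPM in DMSO libraries 1 to 3 and at 26.8, 42.9 and 0 CPM with lenalidomide. All 3 lenalidomide libraries lay far below all 3 DMSO libraries, and the change was −3.10 ± 0.31, a fitted 8.56-fold drop (adjusted p = 1.71e-08). GTPBP8, a GTP-binding protein, fell from 244, 202 and 224 CPM to 62.6, 58.1 and 24.1 CPM (−1.89 ± 0.28, adjusted p = 4.44e-05). NFKBIA, the inhibitor of NF-κB that NF-κB itself induces, fell from 339, 340.0 and 385 CPM to 194, 119 and 96.2 CPM (−1.19 ± 0.23, adjusted p = 0.00322).

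NFKBIA was the only one of 14 tested NF-κB subunits and targets past the threshold. The subunit RELB was at −1.67 ± 0.52 (adjusted p = 0.182) and NFKB1 at 0.59 ± 0.36, and the list's members lay on both sides of 0, with 8 above and 6 below. GZMB, the serine protease of cytotoxic granules, fell from 3320.0, 2991 and 3341 CPM to 2291, 2206 and 1900.4 CPM (−0.53 ± 0.13, adjusted p = 0.0399). NKG7, another granule gene, had 0.63 ± 0.18 (adjusted p = 0.111), and PRF1, the pore-forming perforin, had 0.21 ± 0.18.

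CDK6, the kinase that pairs with D-type cyclins in G1, fell from 1178, 1334 and 1293 CPM to 795, 490.1 and 1082 CPM (−0.78 ± 0.19, adjusted p = 0.0326). SKA1, which couples kinetochores to microtubules, fell from 204, 216 and 218 CPM to 110.2, 98.5 and 96.2 CPM (−0.98 ± 0.24, adjusted p = 0.0419). SAPCD2, a regulator of spindle orientation, fell from 121, 133 and 164 CPM to 47.7, 58.1 and 72.2 CPM (−1.28 ± 0.30, adjusted p = 0.0251). Each of these 3 calls was lost when any 1 DMSO library was left out.

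TOMM40, the channel of the outer mitochondrial membrane translocase, fell from 281, 314 and 293 CPM to 137, 147 and 120.3 CPM (−1.02 ± 0.23). TMEM260 fell from 221, 259 and 266 CPM to 110.2, 104 and 120.3 CPM (−1.14 ± 0.24). CMTM7, a membrane protein of the chemokine-like MARVEL family, fell from 215, 153 and 105 CPM to 44.7, 78.3 and 48.1 CPM (−1.29 ± 0.32, adjusted p = 0.0398).

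Promoter sequences were read for 5 of these genes. SPP1, SLC2A5 and NLRP3, which rose, and IL10 and NFKBIA, which fell, are shown so that genes moving in each direction can be read side by side. Each line gives the 250 bases before the annotated start, 5′ to 3′ on the gene's own strand, from RefSeq on GRCh38.p14; capitals mark the letters of any match to the motifs below.
SPP1: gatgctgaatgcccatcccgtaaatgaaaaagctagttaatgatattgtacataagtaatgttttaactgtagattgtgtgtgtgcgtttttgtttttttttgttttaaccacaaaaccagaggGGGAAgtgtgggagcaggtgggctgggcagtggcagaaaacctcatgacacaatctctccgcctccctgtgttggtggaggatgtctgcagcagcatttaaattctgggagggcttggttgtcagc
SLC2A5: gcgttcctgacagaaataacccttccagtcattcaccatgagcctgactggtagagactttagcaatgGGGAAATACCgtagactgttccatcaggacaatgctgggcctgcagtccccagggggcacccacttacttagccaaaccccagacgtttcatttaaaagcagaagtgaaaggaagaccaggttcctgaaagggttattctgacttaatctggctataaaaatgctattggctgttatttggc
NLRP3: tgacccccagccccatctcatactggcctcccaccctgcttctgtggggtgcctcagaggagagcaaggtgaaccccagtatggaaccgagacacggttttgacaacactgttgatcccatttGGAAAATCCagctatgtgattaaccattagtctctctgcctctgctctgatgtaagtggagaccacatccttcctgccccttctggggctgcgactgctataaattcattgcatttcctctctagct
IL10: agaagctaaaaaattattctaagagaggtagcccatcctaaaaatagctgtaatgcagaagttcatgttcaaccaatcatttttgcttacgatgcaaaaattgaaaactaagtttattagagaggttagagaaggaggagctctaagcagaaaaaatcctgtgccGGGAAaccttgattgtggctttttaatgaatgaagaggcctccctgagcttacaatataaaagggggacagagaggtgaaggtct
NFKBIA: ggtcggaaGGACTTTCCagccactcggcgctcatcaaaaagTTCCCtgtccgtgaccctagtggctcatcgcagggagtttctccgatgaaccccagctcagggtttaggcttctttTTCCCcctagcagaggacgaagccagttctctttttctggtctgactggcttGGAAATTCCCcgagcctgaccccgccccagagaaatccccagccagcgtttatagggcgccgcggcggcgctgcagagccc

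The windows are chr4:87975464-87975713 on the plus strand for SPP1, chr1:9069636-9069885 on the minus strand for SLC2A5, chr1:247415923-247416172 on the plus strand for NLRP3, chr1:206772495-206772744 on the minus strand for the first of 3 entries for IL10, and chr14:35404750-35404999 on the minus strand for NFKBIA. The motifs searched, on both strands, were GGGAA (the core of Ikaros sites and part of many NF-κB sites), TGANTCA (AP-1), TTCNNNGAA (STAT) and GGNNTTTCC (a form of the NF-κB site). SPP1 and IL10 held 1 match to GGGAA each, 126 and 85 bases before the start. NFKBIA held 3 matches to GGGAA and 2 to GGNNTTTCC, the latter 242 and 81 bases before the start. In SLC2A5 a GGGAA 182 bases before the start overlaps a match to GGNNTTTCC, and NLRP3 held 1 match to GGNNTTTCC at 127 bases. None of the 5 windows held TGANTCA or TTCNNNGAA.

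Over the longer window of the RefSeq table, 250 bases before to 50 after the start, 38 promoters were found for 29 of the 39 rises and 13 for the 10 falls. GGGAA was in 71.1% of the promoters of rises and 76.9% of those of falls, beside 65% of all 35116 promoters. TGANTCA was in 13.2% and 15.4%, beside 7.71%, and TTCNNNGAA in 10.5% and 15.4%, beside 7.66%. GGNNTTTCC was in 10.5% and 7.69%, beside 6.26%. With so few promoters these shares are a description, and a match is not a bound site.

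Genes of the cell cycle were mostly lower with lenalidomide, although few passed the test one by one. Of 41 tested G1/S and replication genes, CDK6 was called, 37 lay below 0 and 4 above, and the median was −0.36 on the log2 scale; over all genes tested 2919 of 5796 lay below 0. CCND3, cyclin D3, was at −0.53 ± 0.17 (adjusted p = 0.219) and RRM2, a subunit of ribonucleotide reductase, at −0.55 ± 0.18 (adjusted p = 0.199). Summed over the list, G1/S genes took 0.897% to 0.926% of counts in the DMSO libraries and 0.581% to 0.71% in the lenalidomide libraries, with no overlap. Many other lists, heat shock chaperones among them, also had summed shares without overlap, so this separation is not particular to G1/S genes.

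Of 65 tested G2/M and mitosis genes none was called, 51 lay below 0 and the median was −0.28. CDCA5, a cohesin regulator, was at −1.02 ± 0.29 (adjusted p = 0.105) and KIF11, the spindle motor, at −1.05 ± 0.32 (adjusted p = 0.161). The summed share of these genes was 0.994% to 1.07% with DMSO and 0.738% to 0.856% with lenalidomide. In bulk libraries, fewer dividing cells and less RNA of these genes per cell cannot be told apart. The medians of both lists stayed below 0 with either other scaling and without any 1 library, from −0.48 to −0.32 for G1/S genes and from −0.35 to −0.27 for G2/M genes.

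A list of 47 tested MYC targets in ribosome biogenesis had 0 calls, 38 members below 0 and a median of −0.14. The 70 cytosolic ribosomal proteins tested had 0 calls and a median of 0.05. Mitochondrially encoded genes leaned the other way, with 14 of 15 above 0, a median of 0.23 and MT-RNR2 as the only call; their share of counts was 3.26% to 3.48% with DMSO and 3.76% to 4.18% with lenalidomide. Hypoxia genes had 11 of 12 above 0 (median 0.23) and no call; CA12, carbonic anhydrase 12, was at 1.55 ± 0.60 (adjusted p = 0.391), and VEGFA, the vascular growth factor, was the only member below 0, at −1.15 ± 0.57.

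**Figure D2:**
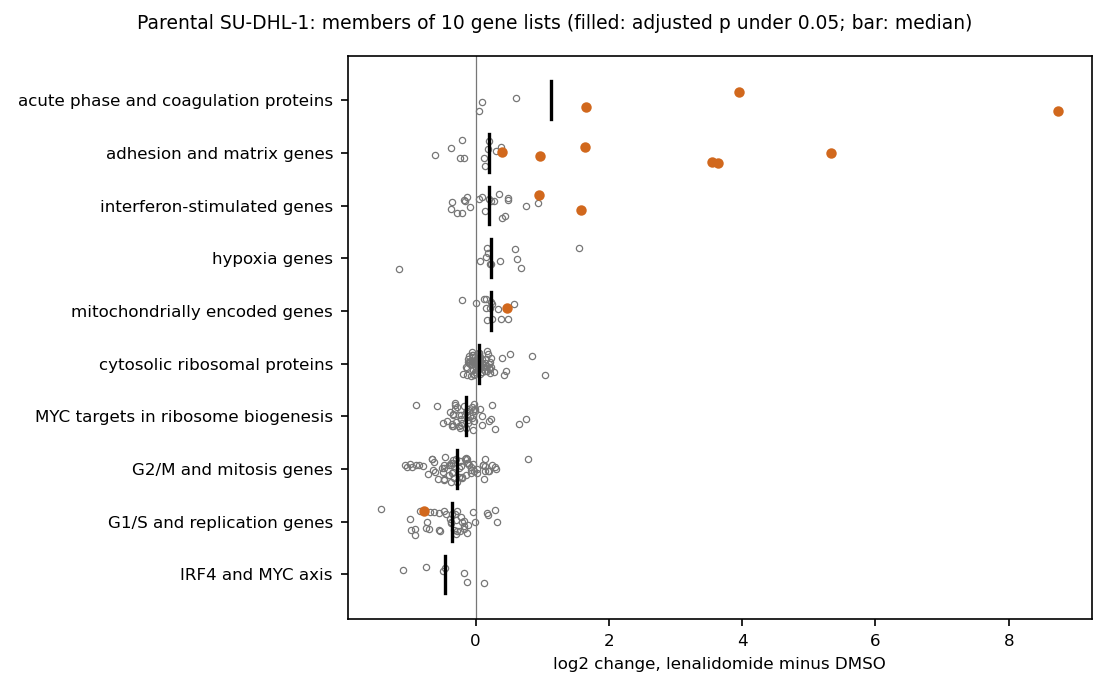
Log2 change with lenalidomide of each tested member of 10 gene lists in parental cells; each point is a gene, filled where the adjusted p is under 0.05, and the black bar is the list's median. Members of the G1/S and G2/M lists lie mostly left of 0, with medians of −0.36 and −0.28, and the filled points far to the right are LBP, SPP1, FGG, TGM2 and AKAP12.

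**Figure D3:**
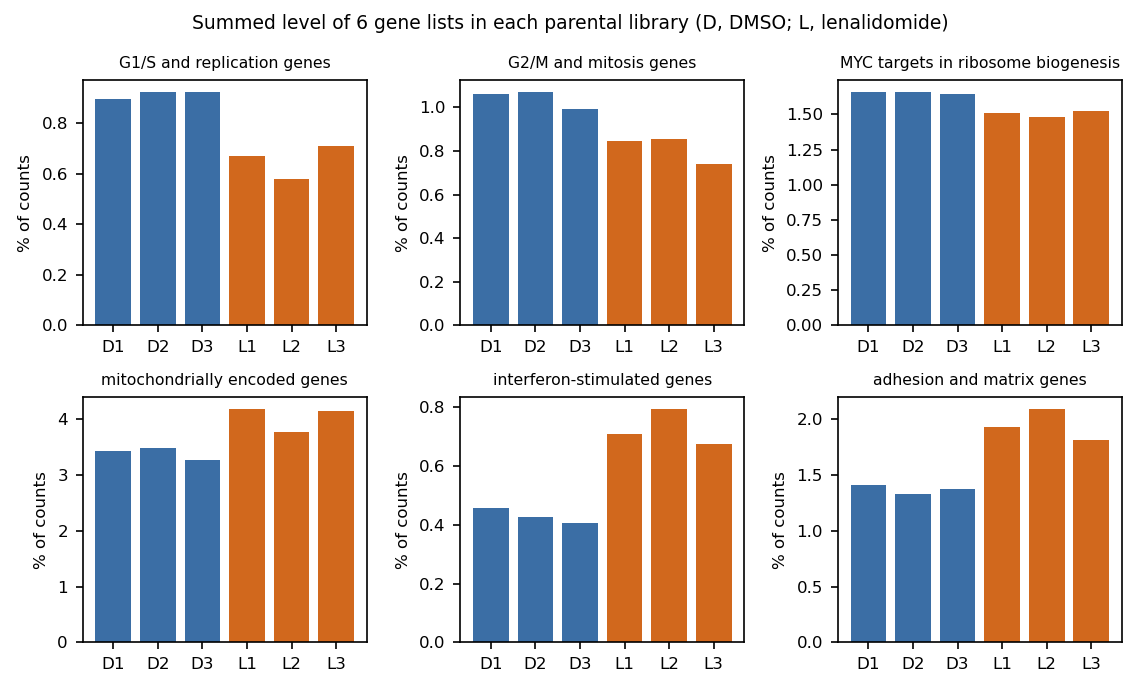
Summed share of all counts, in percent, held by 6 gene lists in each parental library, with DMSO libraries (D1 to D3) in blue and lenalidomide libraries (L1 to L3) in orange; each axis starts at 0. In all 6 panels the 3 bars of one treatment stay clear of the 3 bars of the other, with G1/S genes at 0.897% to 0.926% and 0.581% to 0.71%. Such separation was common among the lists not shown, as in heat shock chaperones (1.03% to 1.04% with DMSO, 0.895% to 0.964% with lenalidomide). Other lists overlapped, as cytosolic ribosomal proteins did (11.4% to 11.8% and 11.4% to 12.4%). In the panel of interferon-stimulated genes IFITM2 and IFITM3 held 31.2% and 25.7% of the summed CPM.

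None of the genes closest to the drug's own action passed the test at the transcript level. ZFP91 was at 74.7, 107 and 143 CPM with DMSO and 77.5, 65.7 and 96.2 CPM with lenalidomide (−0.50 ± 0.31, adjusted p = 0.69), and IKZF1 at 0.19 ± 0.25, a sign that reversed without the shallow library. IKZF3 was not analysed here. CRBN, which encodes cereblon, was at 31.6, 37.5 and 50.8 CPM with DMSO and 50.6, 53.1 and 0 CPM with lenalidomide, where the 0 lies within what the shallow library can miss. Of the 21 tested genes of the cereblon ligase machinery none was called (median 0.02), and COPS8 and COPS6, subunits of the COP9 signalosome, came nearest at 0.53 ± 0.28 and 0.42 ± 0.23. The 7 tested neosubstrates held no call, with CSNK1A1, casein kinase 1 alpha, at −0.38 ± 0.33. CSNK2B and CSNK2A1, the regulatory and a catalytic subunit of casein kinase 2, were at −0.05 ± 0.20 and −0.41 ± 0.24.

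The transcription factors JUN, BATF3, IRF4 and MYC were also not called. BATF3, an AP-1 factor of ALCL, was at 1114, 1115 and 1030.1 CPM with DMSO and 667, 808 and 722 CPM with lenalidomide, without overlap, and its change of −0.51 ± 0.17 missed the threshold (adjusted p = 0.208). It passed without lenalidomide library 2, at −0.67 (adjusted p = 0.0234). JUN was at 0.54 ± 0.37, IRF4 at −0.12 ± 0.20 and MYC at −0.17 ± 0.26; the sign of IRF4 reversed without lenalidomide library 2 and that of MYC without lenalidomide library 1. In the IRF4 and MYC list 6 of 7 lay below 0 (median −0.45) with no call; PIM1, a kinase induced by STAT signals, was at −1.09 ± 0.29 (adjusted p = 0.0573) and TNFRSF8 at −0.74 ± 0.21 (adjusted p = 0.1). The ALK and STAT3 list, with 25 tested, held IL10, GZMB and TIMP1, which changed in different directions, and a median of −0.07. IL10 had enough counts to test only through its DMSO libraries, so a fall was built into its place among the 25.

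Most other lists held no call. Cytokines and chemokines had SPP1 and IL10 of 6 tested. SPP1 had enough counts to test only through its lenalidomide libraries and IL10 only through its DMSO libraries. Their changes were therefore built into their places among the 6. Cytokine receptors had 0 of 15, with IL2RB, the beta chain of the interleukin 2 receptor, at −0.87 ± 0.25 (adjusted p = 0.1) and IL1R1, the interleukin 1 receptor, at 0.84 ± 0.26 (adjusted p = 0.169). MAPK feedback genes had 0 of 7, with the phosphatase DUSP2 at −0.82 ± 0.41 and SPRED1 at 0.65 ± 0.35. T cell receptor and identity genes had 0 of 5, with GATA3, the lineage factor of T helper cells, at −0.80 ± 0.33 and CD5 at −0.46 ± 0.32. Apoptosis regulators had 0 of 17, with BIRC6 at 0.53 ± 0.28 and CYCS, cytochrome c, at −0.28 ± 0.21.

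Metabolic and chaperone lists were similar. Sterol and fatty acid synthesis had 0 of 16, with DHCR7, a reductase of cholesterol synthesis, at −0.78 ± 0.42. The list of amino acid response, serine synthesis and unfolded protein genes had 0 of 28 and a median of −0.12, but its members split: HSPA5, the endoplasmic reticulum chaperone BiP, was at 0.77 ± 0.24 (adjusted p = 0.166) and ATF4 at −0.48 ± 0.19. Heat shock chaperones had 0 of 15, with HSPH1 at −0.74 ± 0.23 and HSPA1A at 0.61 ± 0.28. MHC class I presentation had 0 of 16, with CALR at 0.77 ± 0.34 and PSMB8 at 0.40 ± 0.23, and MHC class II had a single tested gene, HLA-DRA, at 0.46 ± 0.46. Of the 3 tested S100 genes S100A10 rose, and S100A11 was at 0.41 ± 0.19.

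The same drug in regrown cells moved many of the same genes. Total counts were 122167 and 132406 in regrown lenalidomide libraries 1 and 2 and 349614 in regrown lenalidomide library 3. The regrown DMSO libraries held 279197 to 370447 counts. The low totals limit what the tests of the regrown response, and of the difference between the responses, can find. Of 5661 genes tested there, 13 were higher (0.23%) and 0 were lower (0%), and DESeq2 called 12 higher and 0 lower. By edgeR 283 had an unadjusted p under 0.05, beside 283.05 expected if no gene changed. Of the 39 genes that rose in parental cells 34 were tested in regrown cells: 11 rose, 32 lay above 0 and the median was 0.88. Without regrown DMSO library 3 or lenalidomide library 3 the 13 calls became 7. Without regrown DMSO library 3 the 11 became 6, and without regrown lenalidomide library 3 they became 7. The 11 were SPP1, LBP, FCRLB, TM4SF1, IFITM3, PLAUR, ANXA1, CHI3L1, FGG, RAB13 and SYNPO.

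SPP1 went from 2.79, 16.2 and 3.58 CPM in regrown pools 1 to 3 with DMSO to 98.2, 189 and 415 CPM with lenalidomide (4.94 ± 0.54, adjusted p = 1.11e-06), close to its change of 5.33 in parental cells. LBP had 2 counts over the regrown DMSO libraries and 37 over the lenalidomide libraries, a ratio of 30.9 with a counting interval of 7.97 to 264.5 (95%, exact). CHI3L1 started higher in regrown cells, at 203, 283 and 89.5 CPM, and rose to 622, 725 and 406 CPM (1.58 ± 0.30). IFITM3 started far lower, at 8.36, 5.4 and 10.7 CPM, and rose to 213, 113 and 60.1 CPM (3.84 ± 0.57), so that even with lenalidomide it stayed under the DMSO level of parental cells.

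Of the 39 rises, 5 had too few counts to test in regrown cells. SLC2A5 had 0 counts in the 3 regrown DMSO libraries and 1 in the lenalidomide libraries. TGM2 was at 8.36, 2.7 and 0 CPM with DMSO and 106, 22.7 and 77.2 CPM with lenalidomide, and STON1 at 11.1, 13.5 and 3.58 against 32.7, 15.1 and 22.9 CPM, both higher with lenalidomide in each pool and without overlap. AKAP12 was at 8.36, 18.9 and 3.58 CPM with DMSO and 40.9, 128 and 2.86 CPM with lenalidomide, and CD163 at 2.79, 8.1 and 17.9 against 8.19, 7.55 and 40 CPM, and both overlapped. Among the tested genes, MT2A was at −0.20 ± 0.33 in regrown cells.

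All 10 genes that fell in parental cells lay below 0 in regrown cells, but none passed the test there. The low totals of regrown lenalidomide libraries 1 and 2 limit that test. That test did not pair the libraries of a pool, so differences between pools count in its spread. With the replicate number as a block, 13 genes were called in regrown cells, 12 of them among the 13 above. IL10 was at 223, 54.0 and 294 CPM with DMSO and 65.5, 15.1 and 106 CPM with lenalidomide, lower in each pool (−1.38 ± 0.46, adjusted p = 0.637). GTPBP8 was at 376, 221 and 129 CPM and then 106, 98.2 and 103 CPM (−1.24 ± 0.34, adjusted p = 0.254). NFKBIA, by contrast, was at −0.13 ± 0.25.

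The difference between the 2 responses was tested with an interaction term in 6838 genes, and none passed (0%), while DESeq2 called 0. By edgeR 285 had an unadjusted p under 0.05, beside 341.9 expected if no gene differed. The regrown-minus-parental difference was 2.22 ± 0.56 for IFITM3 (adjusted p = 0.712), 1.08 ± 0.35 for NFKBIA and 1.77 ± 0.65 for IL10. With the replicate number as a block, IFITM3 alone passed (2.42 ± 0.50, adjusted p = 0.0306), as it did without regrown lenalidomide library 3 (adjusted p = 0.0441). The block pairs the libraries of each regrown pool, but it also pairs the parental libraries by number. The labels do not say whether that number marks a shared source. G1/S genes in regrown cells had 28 of 41 below 0 (median −0.24) and G2/M genes 54 of 62 (median −0.37), with 0 calls in either list.

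**Figure D4:**
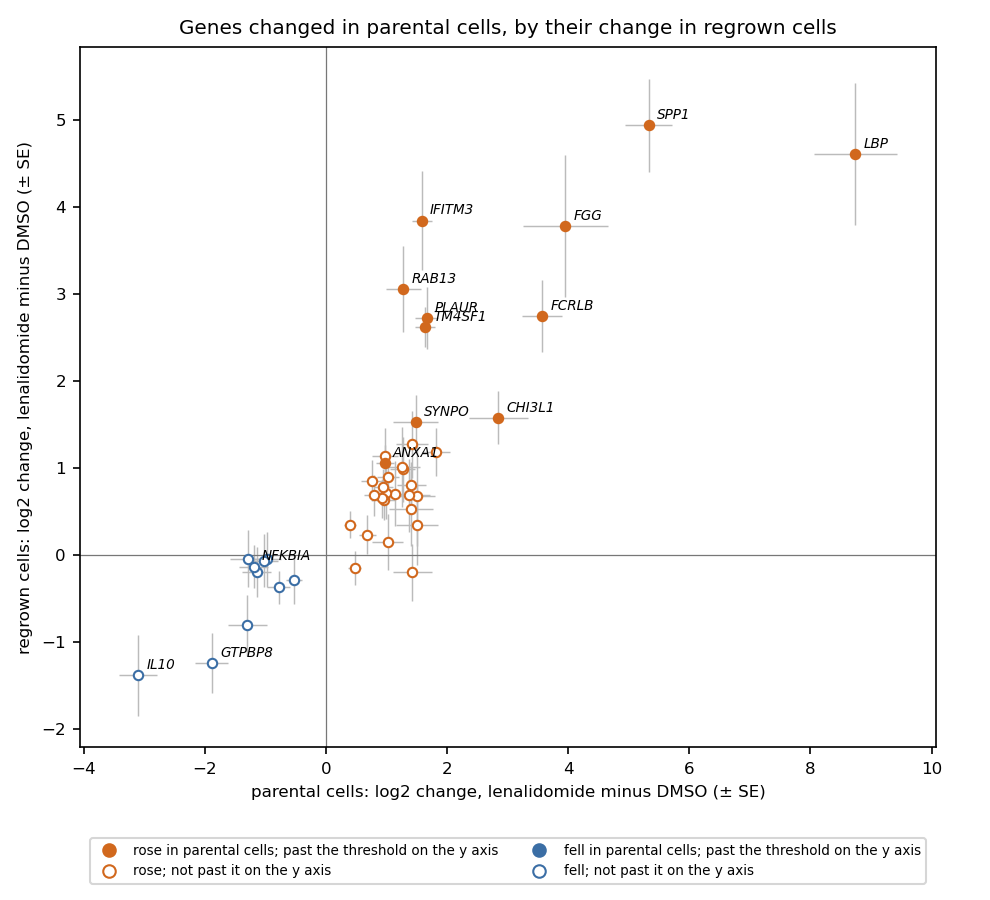
Log2 change with lenalidomide in parental cells (x axis) and regrown cells (y axis), each ± SE, for the genes changed in parental cells that were tested in both; orange genes rose and blue genes fell in parental cells, and filled points passed the test in regrown cells. The 11 filled points are all rises, with SPP1 at 5.33 and 4.94, and all 10 blue points lie below 0 on both axes.

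Since ZFP91 is a neosubstrate of lenalidomide, the genes were also followed in the ZFP91 knockout. ZFP91 transcript itself was at 112, 119 and 111 CPM in uninduced cells and 91.7, 85.8 and 86.6 CPM in the knockout (−0.34 ± 0.08, adjusted p = 0.158); a frameshift need not lower the transcript, so this is no check of the protein. Of 13354 genes tested in the knockout, 8 were higher (0.0599%) and 49 were lower (0.367%). Those 57 calls became 0 without uninduced library 2 (742 genes had an unadjusted p under 0.05), 11 without uninduced library 1, 16 without uninduced library 3, 10 without knockout library 3 and 110 without knockout library 1.

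Several genes that rose with lenalidomide were lower when ZFP91 was knocked out. Of the 39, all tested, 9 were lower in the knockout (23.1%) and 0 were higher, 32 lay below 0 and the median was −0.40 on the log2 scale. Among the genes without a call in the lenalidomide response, 23 of 5458 were lower (0.421%) and the median was 0.02. The 9 genes were SPP1, SLC2A5, AKAP12, FCRLB, SERPINB4, SERPINB1, FBXO32, NLRP3 and SERPINB3.

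SLC2A5 was at 12.5, 15.7 and 13.8 CPM in uninduced cells and 4.35, 4.24 and 4.45 CPM in the knockout (−1.65 ± 0.15, adjusted p = 0.00405), set against its rise of 4.21 with lenalidomide. AKAP12 fell from 19.7, 24.2 and 16.8 CPM to 7.28, 7.87 and 7.79 CPM (−1.37 ± 0.15, adjusted p = 0.0079). NLRP3 fell from 53.3, 56.1 and 48.9 CPM to 27, 24.3 and 26.1 CPM (−1.0 ± 0.09, adjusted p = 0.00448). FCRLB fell by 0.98 ± 0.11, SPP1 by 0.86 ± 0.13, SERPINB1 by 0.75 ± 0.09 and SERPINB3 by 0.72 ± 0.09. In each of these genes the 3 knockout libraries lay below the 3 uninduced libraries. The genes were picked by their fall in these same libraries, so this separation adds no support.

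Not every gene raised by lenalidomide did so. LBP was near 0 in all 6 knockout and uninduced libraries, at 0.403 to 1.47 CPM. CHI3L1 was at −0.15 ± 0.14 and PLAUR at −0.24 ± 0.16, and TGM2, at −0.86 ± 0.15, missed the threshold (adjusted p = 0.0582). CD163 was at 0.34 ± 0.08 and FCER1G at 0.41 ± 0.13. IFITM3 varied widely between the knockout libraries, with 47.4, 135 and 90.5 CPM against 124, 151 and 189 CPM in uninduced cells (−0.73 ± 0.31, adjusted p = 0.577). This spread was not particular to IFITM3: IFITM2 was at 85.9, 251 and 168 CPM in the same knockout libraries.

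Of the 10 genes that fell with lenalidomide, IL10 and GTPBP8 also fell in the knockout. IL10 went from 192, 213 and 236 CPM to 90.3, 136 and 118 CPM (−0.86 ± 0.14, adjusted p = 0.0485), and GTPBP8 from 54.9, 66.6 and 53.9 CPM to 24.4, 26.7 and 26.1 CPM (−1.15 ± 0.11, adjusted p = 0.00405). NFKBIA was at −0.03 ± 0.17, CDK6 at 0.23 ± 0.17 and GZMB at 0.18 ± 0.10, and 5 of the 10 lay above 0. G1/S genes had a median of 0.00 in the knockout and 21 of 41 below 0, while hypoxia genes had 10 of 12 below 0, a median of −0.38 and 4 calls, all lower.

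The knockout calls rest on few libraries. Deviations from the group means also ran together between libraries of the groups, over the more abundant genes tested. Their correlation was 0.68 for uninduced library 1 with knockout library 1. For uninduced library 3 it was 0.82 with knockout library 2 and −0.78 with knockout library 1. The fit has no term for such shared variation, and its cause was not tested. The count of 9 became 0 without uninduced library 2, 2 without uninduced library 1, 4 without uninduced library 3 and 2 without knockout library 3. The median of the 39 genes stayed between −0.42 and −0.30 in those fits and in the fits without knockout library 1 or 2. A fit without a filter on low counts gave 19 lower and 1 higher.

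**Figure D5:**
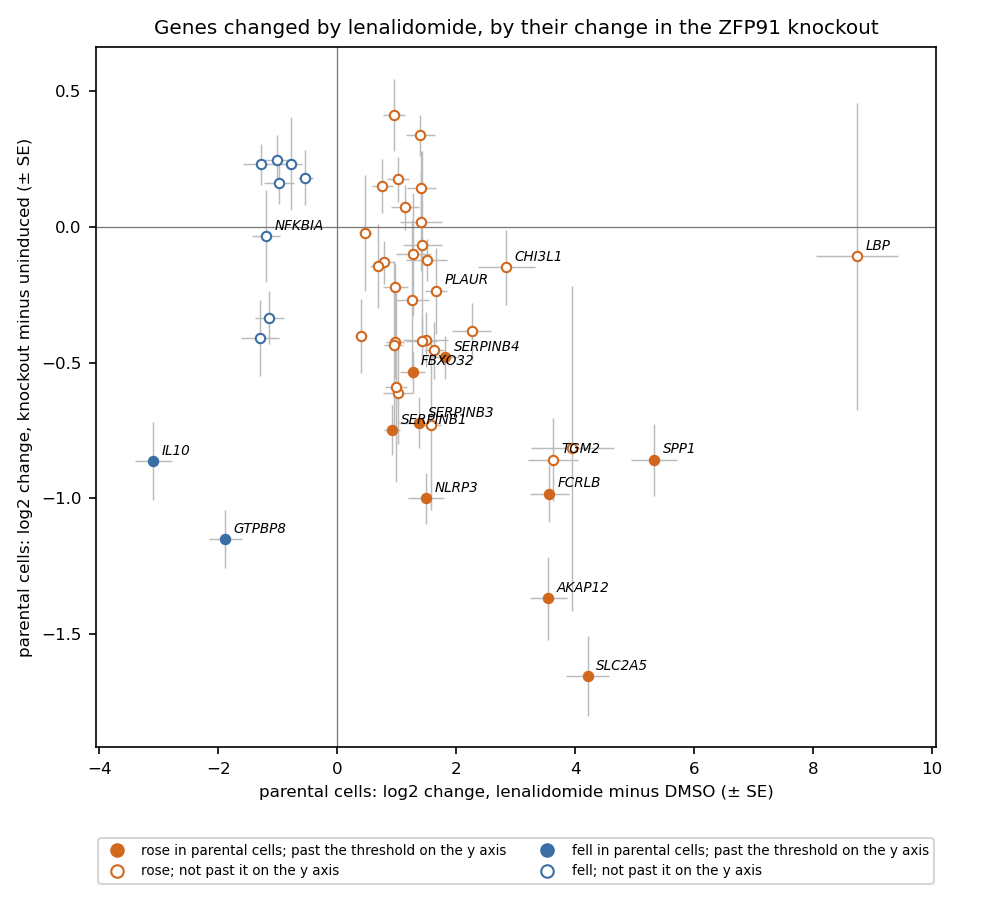
Log2 change with lenalidomide (x axis, DGE) and on ZFP91 knockout (y axis, RNA-seq) in parental cells, each ± SE, for the 49 genes changed by lenalidomide; orange genes rose and blue genes fell with lenalidomide, and filled points passed the test in the knockout. The 9 filled orange points lie at lower right, from SLC2A5 at −1.65 to SERPINB4 at −0.48, and the 2 filled blue points, IL10 and GTPBP8, at lower left.

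In PRO-seq, whose labels name no drug, 17 of the genes raised by lenalidomide had less nascent RNA in regrown than in parental cells. Over all 16456 genes tested 14% were higher in regrown cells and 16.2% were lower, 4973 genes in all, which became 3245 without parental library 2. The 17 are 45.9% of the 37 that were tested, and 7 others had more. SLC2A5 (−2.30 on the log2 scale), NLRP3 (−2.20), CD163 (−2.16), AKAP12 (−1.94), IFITM3 (−1.43), PLAUR (−1.35) and FBXO32 (−1.31) were lower, and CHI3L1 (3.45), FGG (2.83), MT2A (1.35), NRP1 (0.99) and FCRLB (0.88) were higher. Of the 10 falls SAPCD2 (0.81) and CDK6 (0.60) were higher and none was lower, with IL10 at −1.143 (adjusted p = 0.0576).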

How the data were processed

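The DGE table holds raw counts per gene symbol that the authors deposited; per the submitters' processing notes reads went through FastQC and Bowtie2 2.2.3 on hg19, while the counter, its strand setting and any use of molecular identifiers are not given in the sources used here. The deposited PRO-seq counts (cutadapt 1.14, Bowtie 1.2.2, featureCounts 1.6.2) and RNA-seq counts (STAR 2.6.1d) are on hg38, per the submitters' processing notes. Of 17463 DGE names, 17 had turned into dates and 14278 matched a gene ID.

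Counts were fitted with edgeR 4.0.16 in R 4.3.3 (low counts removed by filterByExpr, TMM scaling, quasi-likelihood test, Benjamini-Hochberg adjustment over all genes tested, threshold 0.05), separately for each comparison, and the steps were tested on simulated data. CPM are counts scaled by the library's total, without TMM. Intervals and floors cover counting error only. Alternatives used limma 3.58.1, DESeq2 1.42.0, other scalings and filters, and left out each library. Genes named are all called genes (the 20 largest rises and the 10 falls with values in every library), ZFP91, IKZF1, CRBN, CSNK2B, CSNK2A1, JUN, BATF3, IRF4, MYC and, in each list, up to 4 calls or, with no call, the 2 lowest p-values; FGB, SERPINA1, LDHA, SLC2A3, SAMD9L, SAMD9, RELB, NFKB1, NKG7, PRF1, CCND3, RRM2, SERPINB6, FGA and S100A11 fall outside that rule and were chosen after their values were seen. The members and lists were chosen with earlier results of these data known. Regrown libraries with the same number come from the same pool and so are paired by source, with correlations of deviations of −0.14, 0.17 and 0.03.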

Additional observations from a re-analysis of the deposited data

How the results depend on the processing

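The 49 calls of the parental response became 30 with DESeq2, 31 with a minimum of 1 CPM in 3 libraries, 28 with all 4 DGE groups in 1 fit and 15 with every library thinned to the smallest total, and ran from 25 to 105 when 1 library was left out. The replicate block gave 43, but the labels do not say whether the numbers pair these libraries (correlations of deviations 0.02, 0.05 and 0.15). No called gene reversed; among uncalled genes IKZF1 ran from −0.13 (without lenalidomide library 3) to 0.40 with 1 library left out, IRF4 from −0.28 to 0.065 (without lenalidomide library 2) and MYC from −0.50 to 0.0061 (without lenalidomide library 1), so each reversed, and the cause was not tested. The regrown response had 20 calls without a filter on low counts and 7 to 13 with 1 library left out. The response difference had 1 call with the replicate block and 0 to 1 with 1 library left out. The knockout had 198 calls with DESeq2, 231 without a filter, 56 with the replicate block and 0 to 110 with 1 library left out. Whether the replicate numbers pair the knockout and uninduced libraries is not known from the labels. Nascent transcription had 3245 to 5322 calls with 1 library left out. In alternatives chosen after seeing the data, the 9 rises that were lower in the knockout became 19 without a filter and 0 to 12 with 1 library left out, and the 11 that rose in regrown cells 6 to 11. The block changed no other call count by over 1.5 times. Lenalidomide library 3, with 41571 counts, limits what can be seen of genes near 24.1 CPM, the level of 1 count there.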

Other observations

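Without the shallow lenalidomide library 3, 105 genes were called, 79 higher (1.27%) and 26 lower (0.418%), of which 56 had not been called with all 6 libraries. The following were chosen after their values were seen. NNMT, a nicotinamide methyltransferase, had 0 counts in all 3 DMSO libraries and 38.7 and 42.9 CPM in lenalidomide libraries 1 and 2 (edgeR adjusted p = 0.000354), and ANGPTL4, a secreted inhibitor of lipoprotein lipase, changed by 3.62 ± 0.50 on the log2 scale. IL1R1 rose by 0.99 ± 0.21 (adjusted p = 0.0034). Among the falls, PIM1 changed by −1.26 ± 0.26 (adjusted p = 0.00285), CCND3 by −0.71 ± 0.14 (adjusted p = 0.00118), KIF11 by −1.14 ± 0.30 and RELB, a subunit of NF-κB, by −1.88 ± 0.51. In the library left out, NNMT was at 24.1 CPM, which is 1 count. The other 6 genes were not shifted the same way there. All of them except CCND3 rest on few counts in that library, so their values there cannot settle whether they changed. PIM1 was at 192 CPM there, against 164 to 210.3 CPM with DMSO, CCND3 at 1732 against 1674 to 1729, KIF11 at 120.3 against 89.6 to 204.6 and RELB at 48.1 against 46.0 to 60.5. IL1R1 was at 48.1 CPM, against 119 to 158 CPM with DMSO, and ANGPTL4 at 0.

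RGS16, a regulator of G protein signalling, was called in regrown cells and not in parental cells. It was at 914, 588 and 648 CPM with DMSO in regrown pools 1 to 3 and 1621, 1420 and 1147 CPM with lenalidomide (0.97 ± 0.22, edgeR adjusted p = 0.0454), and at 198, 176 and 161 CPM and then 179, 205 and 289 CPM in parental cells (0.23 ± 0.23). The difference between the 2 cell states was not among the calls of the interaction test.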
